A study of Saccharomyces cerevisiae with 16 samples.

Results

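The 31 genes of ergosterol synthesis and of sterol esters were followed in RNA sequencing of budding yeast, Saccharomyces cerevisiae. They were listed by systematic name out of 6844 genes quantified, and the list was made with earlier results of these data known. The 24 genes of synthesis are *ERG10*, *ERG13*, *HMG1*, *HMG2*, *ERG12*, *ERG8*, *MVD1*, *IDI1* and *ERG20* of the mevalonate steps, *ERG9*, *ERG1* and *ERG7* of the steps to lanosterol, *ERG11*, *NCP1*, *ERG24*, *ERG25*, *ERG26*, *ERG27* and *ERG28* of lanosterol demethylation, and *ERG6*, *ERG2*, *ERG3*, *ERG5* and *ERG4* of the late steps. The other 7 are *UPC2* and *ECM22*, which encode activators of the synthesis genes, *ARE1* and *ARE2*, which encode the enzymes that esterify sterols, *YEH1* and *YEH2*, which encode steryl ester hydrolases, and *ATF2*, which encodes an acetyltransferase that acetylates sterols. All 31 passed the filter on low values, a mean of at least 1 TPM over the libraries. TPM is the share of a gene in a library's transcripts, out of 1000000, with gene length taken into account.

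The series held 16 libraries, of 4 replicates for wild-type cells and for each of the mutants *atg18∆*, *fab1∆* and *vph1∆*. Cells were grown at room temperature in a synthetic medium with dextrose and amino acids (SDC) and collected at an OD600 of 0.05. Growth to a low density was meant to keep the cells from acidifying the medium. Duplicate cultures were grown on each of 2 days, and the labels do not say which replicate numbers share a day. The molecule is given as polyA RNA, whereas the protocol describes libraries from total RNA without selection, and which of them holds was not settled here. All 4 strains descend from DHY211 and carry the alleles SAL1+ and HAP1+, together with CAT5(91M) and MIP1(661T), then MKT1(30G), and also RME1(INS-308A) and TAO3(1493Q). The mutants differ from wild type by a deletion replaced with NatMX, a drug resistance cassette, in atg18∆::NatMX, fab1∆::NatMX or vph1∆::NatMX. *ATG18* encodes a phosphoinositide-binding protein of the vacuole, *FAB1* the phosphoinositide kinase of that membrane and *VPH1* a membrane subunit of the vacuolar proton pump. The number of independent clones behind each strain was not given in the labels.

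Ergosterol is the main sterol of fungal membranes and takes the place that cholesterol has in animals. Its synthesis starts from acetyl-CoA, runs through mevalonate, farnesyl pyrophosphate, squalene and lanosterol, and uses oxygen and haem at several steps. Surplus sterol is esterified in the endoplasmic reticulum and stored in lipid droplets, from which hydrolases release it. Upc2 and Ecm22 bind the sterol regulatory element in the promoters of many synthesis genes, which Upc2 activates when sterols run low, and Hap1, a haem-dependent factor, also acts on several of them.

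The sterol regulatory element was therefore looked up in the 500 bases before each start codon in the RefSeq R64 assembly, which is the sacCer3 build of the files. The letters TCGTATA, or TATACGA on the other strand, stood before 9 of the 31 genes, 29% of them, and before 395 of the 5747 genes with a window, 6.87%. The 9 were *ERG13*, *ERG8*, *ERG1*, *ERG25*, *ERG28*, *ERG6*, *ERG2*, *ERG3* and *YEH1*. The Hap1 motif, searched on both strands, stood before none of the 31 and before 21 of all windows, 0.365%. The sites of the 5 genes with a match that were higher in *vph1∆* without wild-type replicate 3 are printed here because the comparison with *vph1∆* returns to them. They are written along the strand of the gene, 5′ to 3′, with the motif in capitals and its first letter counted back from the start codon. A match is a match of letters and says nothing of binding.
ERG28, chrV:238277-238305, minus strand, first capital at -278: taacctaatctTATACGAactgaattaaa
ERG2, chrXIII:667341-667369, plus strand, first capital at -185: aaccacggcccTCGTATAagccgcaagga
ERG3, chrXII:253524-253552, plus strand, first capital at -326: caaccggggtgTATACGAggccgatggct
ERG3, chrXII:253564-253592, plus strand, first capital at -286: aaaattcaggcTCGTATAagtggcacaat
ERG25, chrVII:610070-610098, plus strand, first capital at -483: actgcctccctTCGTATAcgggacacaga
ERG25, chrVII:610090-610118, plus strand, first capital at -463: ggacacagagaTCGTATAcggtaaacgac
YEH1, chrXII:125308-125336, plus strand, first capital at -215: aaagcttattaTATACGAgaaaagaaacg

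Before the results, 1 library has to be set apart. In wild-type replicate 3 the 10 most abundant genes held 31.2% of all TPM, against 14.4% to 15.9% in the other 15 libraries, and 6091 genes reached 1 TPM, against 6329 to 6471. Its log2 values correlated with those of the other wild-type libraries at r of at most 0.967, whereas the other wild-type pairs reached at least 0.994. The study's records state that a wild-type sample was dropped for poor RNA without naming it. The comparisons are therefore fitted both with all 16 libraries and without this library. The deleted genes agree in direction with the labels. *ATG18* was at 0 to 0.0106 TPM in the *atg18∆* libraries and *VPH1* at 0 to 0.191 TPM in the *vph1∆* libraries. *FAB1* was still at 1.28, 1.39, 1.58 and 1.49 TPM in *fab1∆*, below the 1.77 to 3.55 TPM of the other 12 libraries, and the source of that remainder was not tested. In all 16 libraries the a-specific genes summed to 4604 TPM or more and the alpha-specific genes to 3.92 TPM or less, so the strains share a mating type. Since TPM keeps no read number, depth is unknown. Errors of the fold changes rest on the spread among replicates, pooled over the strains and drawn toward a trend over all genes.

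Levels of the sterol genes spanned a wide range. Over the 16 libraries *ERG2* had the highest mean, 529.6 TPM, followed by *ERG25* at 505 and *ERG3* at 413, and *UPC2* had the lowest, 3.72 TPM. Together the 31 genes summed to 4232, 4290 and 4423 TPM in wild-type replicates 1, 2 and 4, and to 1939 TPM in replicate 3. The sum was 4789, 4674, 4631 and 4557 TPM in *atg18∆*, 4873, 4948, 4439 and 4691 TPM in *fab1∆*, and 4846, 5568, 5237 and 4959 TPM in *vph1∆*. Every mutant library thus lay above every wild-type library in this sum, and 3 of the 4 *vph1∆* libraries lay above all others. Wild type without replicate 3 averaged 4315 ± 97.9 TPM (SD, n = 3), below the 4663 ± 97.01 of the 4 *atg18∆* libraries, the 4738 ± 227 of *fab1∆* and the 5153 ± 322 of *vph1∆*. The 5 late genes had the sum that differed most between *vph1∆* and wild type, with 1728 ± 105 TPM against 1356 ± 14.7 in those wild-type libraries, 1456 ± 41.4 in *atg18∆* and 1517 ± 104 in *fab1∆*. In bulk RNA, fewer cells that express a gene and less of its RNA per cell cannot be told apart, and TPM is a share of a library's transcripts, not an amount per cell. Within a strain the genes varied little. The median coefficient of variation was 4.28% in *atg18∆*, 4.41% in *fab1∆*, 8.39% in *vph1∆* and 5.23% in the 3 wild-type libraries. Replicate 3 raised the wild-type value to 35.3%. Over all genes the medians were 8.42% in *atg18∆*, 5.18% in *fab1∆*, 8.71% in *vph1∆* and 7.80% in those wild-type libraries. With replicate 3 the wild-type median over all genes was 31.9%.

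**Figure D1:**
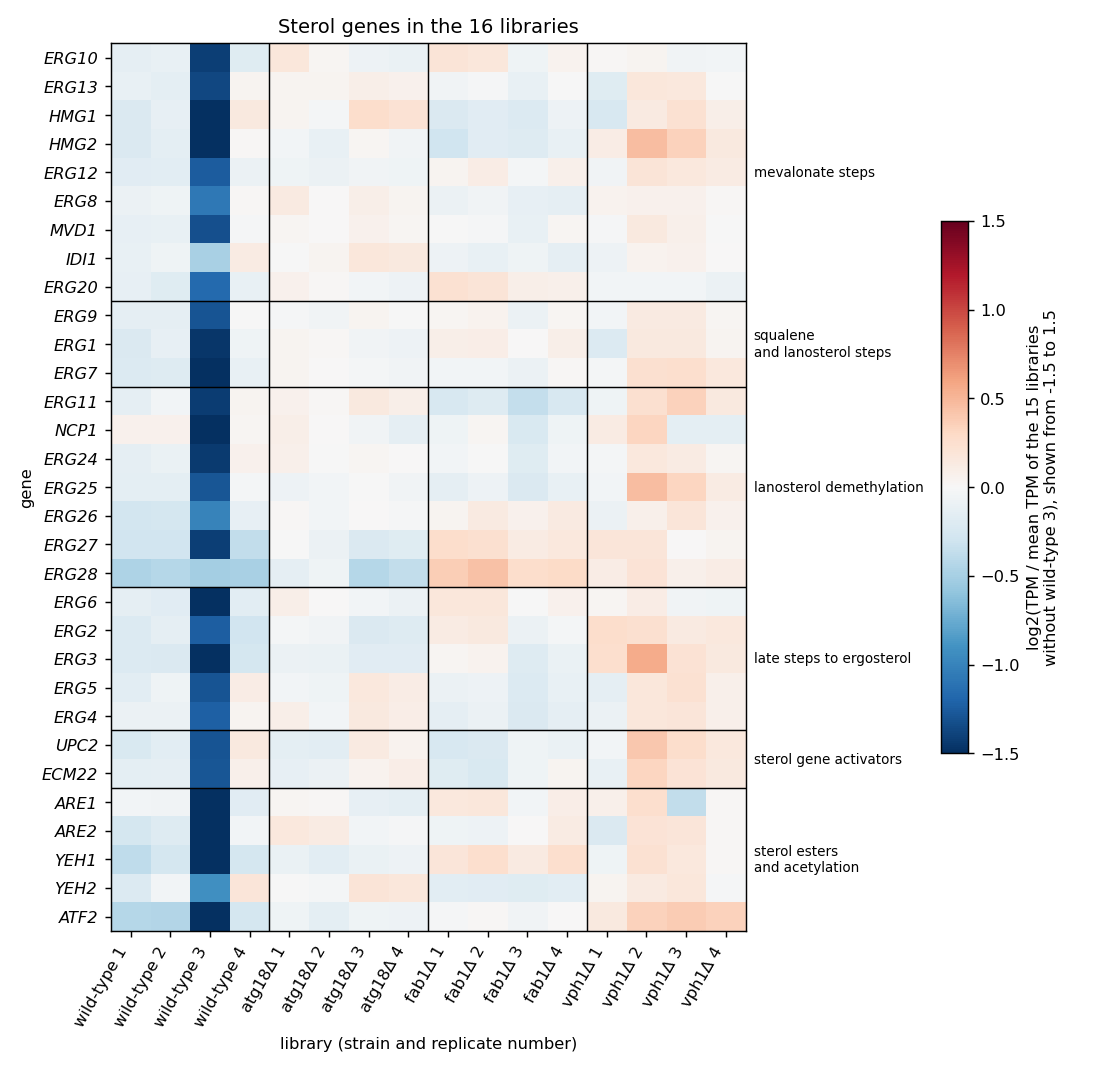
TPM of the 31 sterol genes (rows, grouped by role) in the 16 libraries (columns), as log2 of the ratio to the gene's mean over the 15 libraries other than wild-type replicate 3, on a colour scale from -1.5 to 1.5. The column of wild-type replicate 3 has the lowest value for every gene, though for *ERG28* it is only just below the other wild-type libraries. In *fab1∆* the reds fall on *ERG28*, *ERG27*, *ERG20* and *YEH1*, and in *vph1∆* on *ERG3*, *ERG25*, *ATF2* and *HMG2*.

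All 31 genes were lower in wild-type replicate 3 than the mean of the other 3 wild-type libraries, by ratios from 0.256 for *NCP1* to 0.965 for *ERG28* with a median of 0.416. Over all genes tested the median ratio was 0.495. The ratio went with gene length. It was 0.845 over genes of up to 500 bases, the class of *ERG28*, which is 447 bases long, 0.581 from 500 to 1000 bases and 0.473 from 1000 to 1500 bases, the class of 14 of the sterol genes. In the 2 longest classes it was 0.430 and 0.427. *HMG1* and *HMG2*, the longest of the 31 at 3165 and 3138 bases, stood at 0.310 and 0.302.

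**Figure D2:**
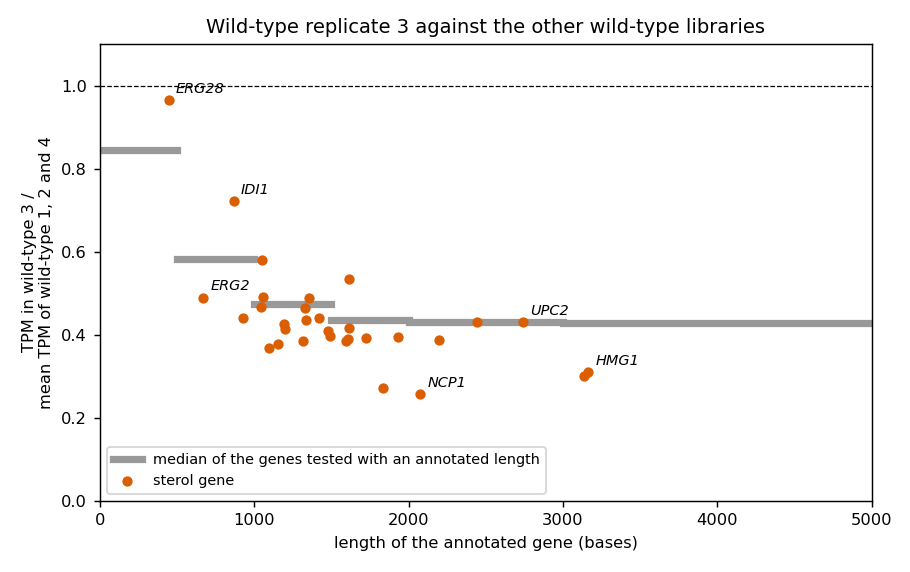
Ratio of TPM in wild-type replicate 3 to the mean of wild-type replicates 1, 2 and 4 (vertical axis) against the annotated gene length in bases (horizontal axis), for the 31 sterol genes (points) and as the median of all genes tested in each length class (grey bars, the last class drawn to 5000 bases although it has no upper end). *ERG28*, the shortest, lies at 0.965 and most sterol genes of over 1000 bases lie under 0.5.

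The mutants were compared with wild type to ask which of these genes respond to loss of each vacuolar protein. Log2(TPM + 1) was fitted with limma for all 6404 genes that passed the filter, and adjusted p-values are Benjamini-Hochberg values over all of them with a threshold of 0.05. Fold changes are on that scale and understate those of low genes. In *atg18∆* none of the 31 passed, with all libraries or without wild-type replicate 3, although 11 and 12 of them had an unadjusted p under 0.05, as had 405 and 381 of all genes, and of all genes 0.0312% were called higher and 0.0156% lower with all libraries, 0.078% and 0.0156% without that library. In *fab1∆* 7 of the 31 were higher (*ERG20*, *ERG26*, *ERG27*, *ERG28*, *ERG2*, *YEH1* and *ATF2*) and none lower, 22.6% of them, against 22.9% of all genes called higher and 0.609% called lower. In *vph1∆* 5 were higher (*ERG27*, *ERG28*, *ERG2*, *ERG3* and *ATF2*) and none lower, 16.1% of them, against 4.42% of all genes called higher and 0.453% called lower. The share in *fab1∆* is that of genes at large, whereas the share in *vph1∆* is above it. *ERG27*, *ERG28*, *ERG2* and *ATF2* were called in both mutants, which were compared with the same wild-type libraries. Counted by libraries alone, 10 of the 31 had every *atg18∆* library above every wild-type library, against 4.89% of all genes, and none below, against 0.422%. For *fab1∆* 13 were above and none below (32.6% and 1.17% of all genes), and for *vph1∆* 14 were above and none below (15.1% and 0.859%). Without wild-type replicate 3 the counts were equal (5.11% above and 1.34% below over all genes for *atg18∆*, 35.8% and 14.3% for *fab1∆*, 16.7% and 5.04% for *vph1∆*), except that *ERG11* and *ERG4* then lay below wild type in *fab1∆*.

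When wild-type replicate 3 was left out, 6408 genes passed the filter, and 11 of the 31 were higher in each of *fab1∆* and *vph1∆*. In *fab1∆* these were *ERG10*, *ERG12*, *ERG20*, *ERG1*, *ERG26*, *ERG27*, *ERG28*, *ERG6*, *ERG2*, *YEH1* and *ATF2*, with *ERG11* lower. Of all genes 32.4% were called higher and 10% lower, so the 35.5% of the sterol genes again lay near the background. In *vph1∆* the 11 were *HMG2*, *ERG12*, *ERG7*, *ERG25*, *ERG26*, *ERG27*, *ERG28*, *ERG2*, *ERG3*, *YEH1* and *ATF2*, with none lower, 35.5% against a background of 11.6% higher and 3.12% lower. *ERG12*, *ERG26*, *ERG27*, *ERG28*, *ERG2*, *YEH1* and *ATF2* were in both lists. In *atg18∆* the median log2 fold change of the 31 was then 0.11, in *fab1∆* 0.10 and in *vph1∆* 0.16, against 0.046, 0.066 and 0.063 over all genes. With all 16 libraries these medians were 0.42, 0.40 and 0.49 for the sterol genes and 0.27, 0.25 and 0.27 for all genes, so that every comparison with wild type was shifted upward by that library.

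In what follows, a gene passed or was called if it did so in the fit of deposited TPM with all 16 libraries or in that without wild-type replicate 3, as named, and other settings are named where they are used. The counts moved with single libraries and with scaling. Among the single libraries left out, a share of all genes was taken only for wild-type replicate 3. In *fab1∆* the count of 7 in either direction became 12 without wild-type replicate 3 or without replicate 4, and 3 or 4 without any single *fab1∆* library. In *vph1∆* the count of 5 became 11 without wild-type replicate 3 or replicate 4, and 1 or 2 without any single library of the 3 mutants, replicate 2 of *vph1∆* giving the 1. Scaling each library to a common median, which brings the median of all genes to between -0.076 and -0.015, gave 6 higher and 3 lower in *fab1∆* (background 14.9% and 23.3%) and 9 higher and none lower in *vph1∆* (4.22% and 3.87%). With that scaling and without wild-type replicate 3, the split was 5 higher and 10 lower in *fab1∆* (21.3% and 29.9%) and 9 higher and none lower in *vph1∆* (5.57% and 7.43%). The 5 higher in *fab1∆* were *ERG26*, *ERG27*, *ERG28*, *YEH1* and *ATF2*. *ERG10*, *ERG12*, *ERG20*, *ERG1*, *ERG6* and *ERG2*, called higher there without the scaling, were not among them. The 10 lower were *HMG1*, *HMG2*, *ERG8*, *IDI1*, *ERG11*, *ERG5*, *ERG4*, *UPC2*, *ECM22* and *YEH2*, of which only *ERG11* was called lower without the scaling. With all libraries and median scaling the 3 lower were *IDI1*, *UPC2* and *YEH2*. The direction of the group in *fab1∆* thus depended on the scaling, and that in *vph1∆* did not under these settings.

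**Figure D3:**
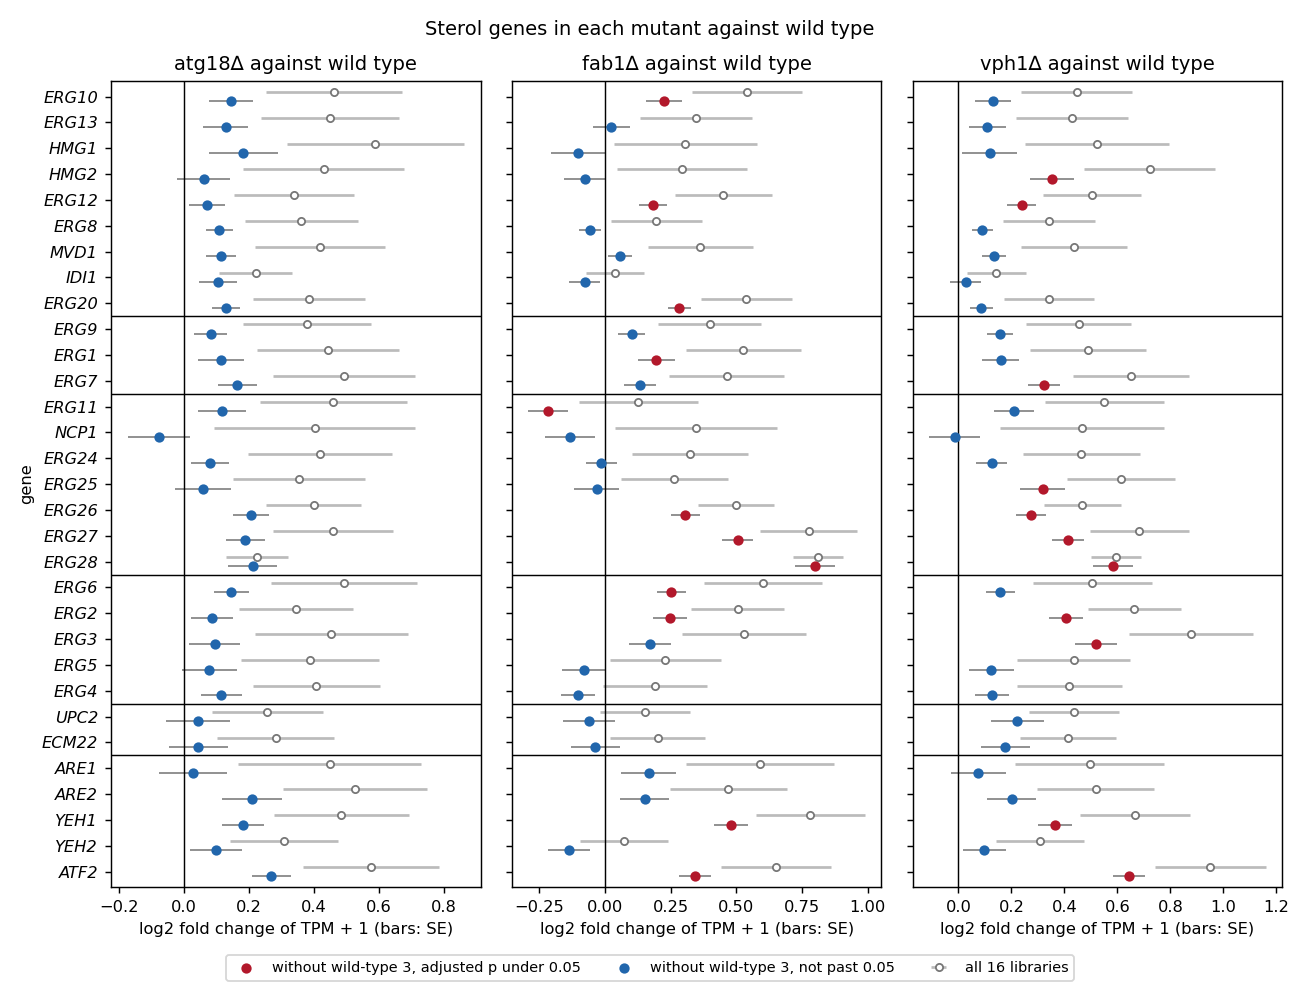
Log2 fold change of TPM + 1 (horizontal axes) of the 31 sterol genes in each mutant against wild type, with all 16 libraries (open grey) and without wild-type replicate 3 (filled, red where the adjusted p is under 0.05 and blue otherwise), bars showing the SE. Open points lie to the right of filled ones for every gene, *ERG28* shows the least shift, and in *vph1∆* only *NCP1* falls below 0 among the filled points.

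In lanosterol demethylation, *ERG28* and *ERG27* were called in both *fab1∆* and *vph1∆* and *ERG26* in *fab1∆*. Their products remove methyl groups from the sterol ring, with Erg25 as oxidase, Erg26 as dehydrogenase, Erg27 as ketoreductase and Erg28 as the scaffold that holds them together. *ERG28* (YER044C, chrV:237570-238016) was at 141, 145, 137 and 139 TPM in wild-type replicates 1 to 4, 178, 187, 144 and 151 TPM in *atg18∆*, 252, 265, 234 and 238 TPM in *fab1∆* and 209.99, 225, 206 and 210.01 TPM in *vph1∆*. All *fab1∆* and *vph1∆* libraries lay above all wild-type and *atg18∆* libraries. Its log2 fold change was 0.81 ± 0.095 (SE, adjusted p = 1.42e-05) in *fab1∆* and 0.60 ± 0.095 (SE, adjusted p = 0.00158) in *vph1∆*, against 0.22 ± 0.095 (SE, adjusted p = 0.294) in *atg18∆*. Leaving out wild-type replicate 3 gave 0.80 ± 0.075 (SE, adjusted p = 1.01e-06) in *fab1∆* and 0.58 ± 0.075 (SE, adjusted p = 0.000118) in *vph1∆*, a smaller shift than for the other genes, and in that library this short gene was at 0.965 of its level in the rest of wild type. *ERG28* passed in both mutants whichever library was left out. With median scaling of all libraries it held in *fab1∆* at 0.48 (adjusted p = 0.0355) and not in *vph1∆* at 0.29 (adjusted p = 0.322). With median scaling and without wild-type replicate 3 it was called higher in both.

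*ERG27* (YLR100W, chrXII:341810-342853) was at 78.9, 78.8, 36.1 and 74.7 TPM in wild-type replicates 1 to 4, 95.9, 90.8, 82.7 and 84.7 TPM in *atg18∆*, 116, 114, 105 and 107 TPM in *fab1∆* and 109, 109, 96.7 and 99.3 TPM in *vph1∆*. Again the *fab1∆* and *vph1∆* libraries all exceeded the wild-type and *atg18∆* libraries, and the *atg18∆* libraries exceeded wild type. For *ERG27* the log2 fold change was 0.78 ± 0.19 (SE, adjusted p = 0.00613) in *fab1∆* and 0.68 ± 0.19 (SE, adjusted p = 0.0438) in *vph1∆*, and 0.50 ± 0.060 (SE, adjusted p = 9.18e-06) and 0.41 ± 0.060 (SE, adjusted p = 0.000305) without wild-type replicate 3. *ERG26* (YGL001C, chrVII:495453-496502) was at 65.4, 65.9, 39.4 and 72.9 TPM in wild-type replicates 1 to 4, 79.9, 77.2, 79.5 and 77.8 TPM in *atg18∆*, 81.3, 87.1, 82.5 and 86.5 TPM in *fab1∆* and 74.7, 83.2, 89.7 and 82.7 TPM in *vph1∆*. All libraries of the 3 mutants lay above wild type for *ERG26*, with a log2 fold change of 0.50 ± 0.15 (SE, adjusted p = 0.0197) in *fab1∆*, 0.47 ± 0.15 (SE, adjusted p = 0.0788) in *vph1∆* and 0.40 ± 0.15 (SE, adjusted p = 0.294) in *atg18∆*. In *fab1∆* and *vph1∆* it passed without wild-type replicate 3, at 0.31 ± 0.056 (SE, adjusted p = 0.000459) and 0.27 ± 0.056 (SE, adjusted p = 0.00403). The call of *ERG26* in *fab1∆* was lost without *fab1∆* replicate 2 or replicate 4, and that of *ERG27* in *vph1∆* without any single mutant library.

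*ERG25* and *ERG11* are described although the rule for named genes did not reach them, and were chosen after their values were seen. *ERG25* (YGR060W, chrVII:610564-611493) was at 475, 474, 215 and 515 TPM in wild-type replicates 1 to 4, 498, 511, 520.2 and 504 TPM in *atg18∆*, 478, 497, 451 and 486 TPM in *fab1∆* and 509.6, 720.4, 657 and 569 TPM in *vph1∆*. The *vph1∆* libraries of *ERG25* ran from 509.6 to 720.4 TPM, a wide spread in which replicate 1 overlapped wild type. Its log2 fold change was 0.61 ± 0.20 (SE, adjusted p = 0.0988) in *vph1∆* and 0.32 ± 0.085 (SE, adjusted p = 0.0197) without wild-type replicate 3, and in *fab1∆* -0.031 ± 0.085 (SE, adjusted p = 0.795) without that library. *ERG11* encodes the cytochrome P450 that removes the first methyl group of lanosterol and is the target of azole antifungals. *ERG11* (YHR007C, chrVIII:120091-121683) was at 286, 306, 117 and 322 TPM in wild-type replicates 1 to 4, 327, 316, 346 and 332 TPM in *atg18∆*, 265, 275, 245 and 265 TPM in *fab1∆* and 299.97, 371, 397 and 347 TPM in *vph1∆*. All *fab1∆* libraries lay below wild-type replicates 1, 2 and 4 and above replicate 3. In *fab1∆* its log2 fold change was 0.13 ± 0.23 (SE, adjusted p = 0.725) with all libraries and -0.21 ± 0.075 (SE, adjusted p = 0.0321) without replicate 3, so its sign turns on that library. For the other 2 genes of this step, and for those given by strain means further on, the SD is over 4 libraries of a mutant and 3 of wild type. *NCP1* (YHR042W) averaged 86.7 ± 1.41 TPM in the other 3 wild-type libraries, 82.2 ± 5.31 in *atg18∆*, 79.1 ± 5.75 in *fab1∆* and 86.6 ± 13.9 in *vph1∆*. *ERG24* (YNL280C) averaged 81.7 ± 6.24 TPM in the other 3 wild-type libraries, 86.2 ± 2.39 in *atg18∆*, 80.8 ± 4.25 in *fab1∆* and 89.2 ± 5.18 in *vph1∆*. *NCP1*, which encodes the reductase that supplies electrons to Erg11, and *ERG24*, a sterol reductase gene, passed in neither fit for any mutant.

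**Figure D4:**
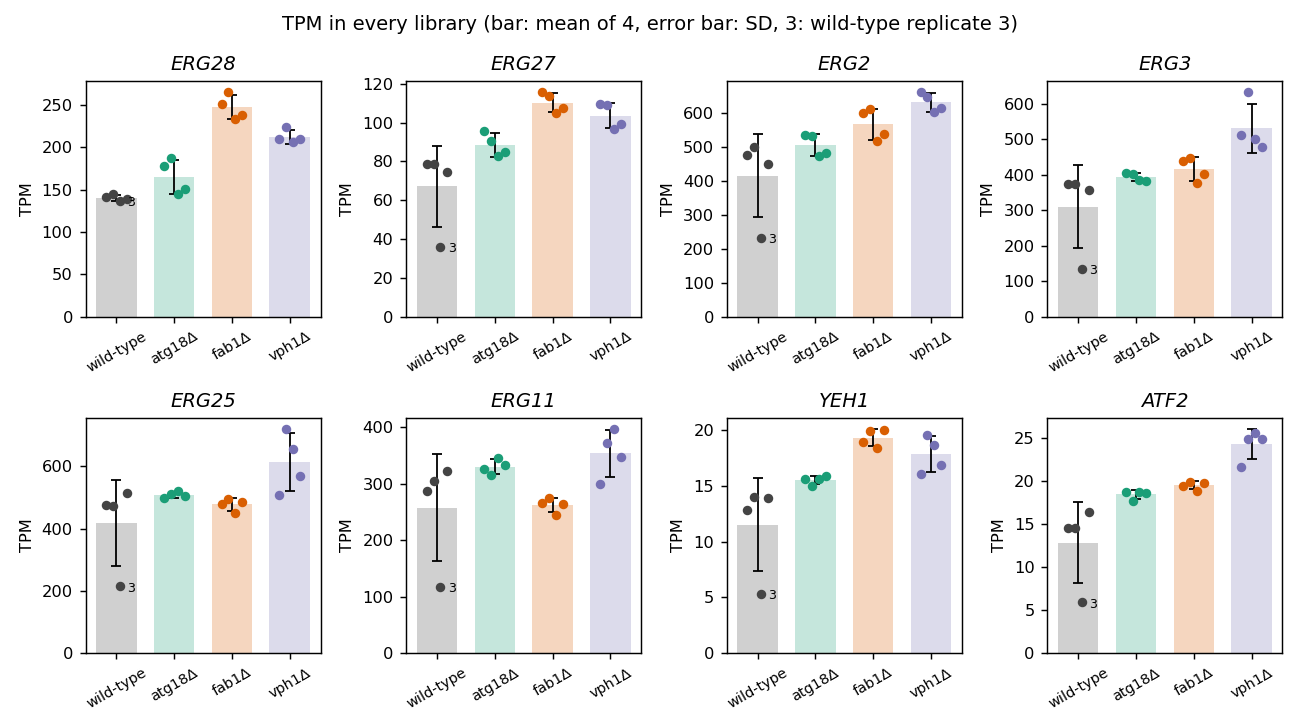
TPM (vertical axes, from 0) of 8 sterol genes in every library, as points by strain with the mean of 4 (bar) and the SD (error bar); the point marked 3 is wild-type replicate 3. That point is the lowest in every panel and lies beside the other wild-type points only for *ERG28*. The *fab1∆* and *vph1∆* points do not overlap for *ERG28*, *ERG3*, *ERG25*, *ERG11* and *ATF2*.

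Of the 9 mevalonate genes, which lead from acetyl-CoA to farnesyl pyrophosphate, 1 was called in *fab1∆* and none in *vph1∆* with all libraries. *ERG20* encodes the farnesyl pyrophosphate synthase. *ERG20* (YJL167W, chrX:105014-106072) was at 264, 254, 128 and 267 TPM in wild-type replicates 1 to 4, 301, 291, 279.6 and 273 TPM in *atg18∆*, 338, 329, 305 and 304 TPM in *fab1∆* and 279, 280.3, 281 and 271 TPM in *vph1∆*. All mutant libraries were above all wild-type libraries and the *fab1∆* libraries were the highest. Its log2 fold change was 0.54 ± 0.17 (SE, adjusted p = 0.0308) in *fab1∆*, a call lost without any single *fab1∆* library, and 0.34 ± 0.17 (SE, adjusted p = 0.226) in *vph1∆*. It was 0.28 ± 0.044 (SE, adjusted p = 0.000101) in *fab1∆* and 0.086 ± 0.044 (SE, adjusted p = 0.231) in *vph1∆* without wild-type replicate 3. With median scaling in that fit *ERG20* was not called in *fab1∆*, whereas it was with median scaling of all libraries. *ERG10* (YPL028W, chrXVI:498096-499292) was at 342, 348, 141 and 332 TPM in wild-type replicates 1 to 4, 423, 384, 354 and 351 TPM in *atg18∆*, 429, 422, 357 and 389.98 TPM in *fab1∆* and 379.7, 386, 363 and 364 TPM in *vph1∆*. *ERG10*, the acetoacetyl-CoA thiolase gene, was above wild type in every mutant library, and had a log2 fold change in *fab1∆* of 0.54 ± 0.21 (SE, adjusted p = 0.0711) with all libraries and 0.23 ± 0.067 (SE, adjusted p = 0.0140) without wild-type replicate 3. Leaving out any other wild-type library instead also made it pass. Without wild-type replicate 3 and with median scaling it was not called. *ERG12* (YMR208W, chrXIII:684467-685798) was at 41.96, 42.1, 19.9 and 44.5 TPM in wild-type replicates 1 to 4, 45.1, 44.3, 45.5 and 45.2 TPM in *atg18∆*, 48.3, 50.8, 46.3 and 49.7 TPM in *fab1∆* and 45.4, 53.7, 52.8 and 51.2 TPM in *vph1∆*. *ERG12* encodes mevalonate kinase. It passed in *fab1∆* at 0.18 ± 0.054 (SE, adjusted p = 0.0135) and in *vph1∆* at 0.24 ± 0.054 (SE, adjusted p = 0.00781) once wild-type replicate 3 was left out, and with all libraries in neither (adjusted p = 0.0879 and 0.133). With that library left out and median scaling added, it was called in neither mutant.

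*HMG1* and *HMG2* encode the 2 HMG-CoA reductases, the main point of control of the pathway. *HMG1* (YML075C, chrXIII:115734-118898) was at 50.2, 53.6, 17.4 and 64.3 TPM in wild-type replicates 1 to 4, 60.03, 57.04, 69.8 and 67.6 TPM in *atg18∆*, 50.01, 51.9, 50.8 and 55.2 TPM in *fab1∆* and 49.5, 64.1, 68.1 and 62.1 TPM in *vph1∆*. *HMG2* (YLR450W, chrXII:1032627-1035764) was at 10.4, 10.99, 3.39 and 12.3 TPM in wild-type replicates 1 to 4, 11.8, 11.2, 12.3 and 11.7 TPM in *atg18∆*, 9.83, 10.8, 10.6 and 11.2 TPM in *fab1∆* and 13.1, 16.8, 15.4 and 13.4 TPM in *vph1∆*. In every library *HMG1* was the more abundant. The *vph1∆* libraries of *HMG2* all lay above the other strains, and those of *HMG1* overlapped wild type. In *vph1∆* the log2 fold change was 0.72 ± 0.25 (SE, adjusted p = 0.111) for *HMG2* and 0.52 ± 0.27 (SE, adjusted p = 0.232) for *HMG1*, and 0.35 ± 0.082 (SE, adjusted p = 0.00862) and 0.12 ± 0.10 (SE, adjusted p = 0.564) without wild-type replicate 3. The difference between the 2 genes was not tested. The remaining mevalonate genes passed in neither fit against wild type, although *ERG8* and *IDI1* were called lower in *fab1∆* without wild-type replicate 3 and with median scaling, as given above. *ERG13* (YML126C) averaged 234 ± 15.99 TPM in the other 3 wild-type libraries, 255 ± 4.37 in *atg18∆*, 238 ± 7.66 in *fab1∆* and 253 ± 27.97 in *vph1∆*. *ERG8* (YMR220W) averaged 60.8 ± 2.34 TPM in the other 3 wild-type libraries, 65.6 ± 2.46 in *atg18∆*, 58.4 ± 1.46 in *fab1∆* and 64.8 ± 1.01 in *vph1∆*. These encode HMG-CoA synthase and phosphomevalonate kinase. *MVD1* (YNR043W) averaged 147 ± 6.24 TPM in the other 3 wild-type libraries, 159 ± 2.69 in *atg18∆*, 153 ± 5.94 in *fab1∆* and 161 ± 8.47 in *vph1∆*. *IDI1* (YPL117C) averaged 125 ± 11.02 TPM in the other 3 wild-type libraries, 134 ± 7.67 in *atg18∆*, 118 ± 2.78 in *fab1∆* and 127 ± 5.80 in *vph1∆*. They encode mevalonate pyrophosphate decarboxylase and isopentenyl diphosphate isomerase, and *IDI1* had the log2 fold change nearest 0 of the 31 in *vph1∆* with all libraries, 0.14.

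None of the 3 genes from squalene synthesis to lanosterol was called against wild type with all libraries as deposited. *ERG1* encodes squalene epoxidase, the target of terbinafine. *ERG1* (YGR175C, chrVII:846933-848423) was at 146, 155, 61.2 and 162 TPM in wild-type replicates 1 to 4, 174, 171, 163 and 160.03 TPM in *atg18∆*, 179, 181, 169 and 179 TPM in *fab1∆* and 147, 187, 187 and 173 TPM in *vph1∆*. All *fab1∆* libraries lay above wild type, and *vph1∆* replicate 1 overlapped it. In *fab1∆* *ERG1* had a log2 fold change of 0.53 ± 0.22 (SE, adjusted p = 0.0931), and 0.20 ± 0.070 (SE, adjusted p = 0.0361) without wild-type replicate 3. With median scaling in the latter fit it was not called. *ERG7* (YHR072W) averaged 43.3 ± 1.54 TPM in the other 3 wild-type libraries, 48.6 ± 1.44 in *atg18∆*, 47.6 ± 1.49 in *fab1∆* and 54.5 ± 4.81 in *vph1∆*. *ERG7*, the lanosterol synthase gene, passed in *vph1∆* without wild-type replicate 3, at 0.32 ± 0.060 (SE, adjusted p = 0.00205), and also with median scaling of all libraries, and stood at 0.65 ± 0.22 (SE, adjusted p = 0.105) with all libraries as deposited. *ERG9* (YHR190W) averaged 129 ± 6.77 TPM in the other 3 wild-type libraries, 137 ± 3.59 in *atg18∆*, 139 ± 5.93 in *fab1∆* and 144 ± 8.202 in *vph1∆*, and *ERG9*, the squalene synthase gene, passed in neither fit for any mutant (adjusted p = 0.0513 in *vph1∆* without wild-type replicate 3), although it passed in *fab1∆* within replicates 1 and 2 alone (adjusted p = 0.0398).

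Of the late genes, which turn the intermediate zymosterol into ergosterol, *ERG2* and *ERG3* were called in *vph1∆* and *ERG2* in *fab1∆*. *ERG2* encodes a sterol isomerase. *ERG2* (YMR202W, chrXIII:667537-668205) was at 478, 499, 233 and 451 TPM in wild-type replicates 1 to 4, 537, 531, 474 and 482 TPM in *atg18∆*, 599, 610.5, 516 and 539 TPM in *fab1∆* and 661, 648, 602 and 613 TPM in *vph1∆*. The *vph1∆* libraries were above all others except that *fab1∆* replicate 2 exceeded *vph1∆* replicate 3. *ERG2* had a log2 fold change of 0.66 ± 0.18 (SE, adjusted p = 0.0384) in *vph1∆* and 0.50 ± 0.18 (SE, adjusted p = 0.0465) in *fab1∆*, and 0.41 ± 0.064 (SE, adjusted p = 0.000594) and 0.25 ± 0.064 (SE, adjusted p = 0.00596) without wild-type replicate 3. Both calls with all libraries were lost when any single mutant library was left out. Without wild-type replicate 3 and with median scaling, *ERG2* was called in neither mutant. *ERG3* encodes a sterol desaturase. *ERG3* (YLR056W, chrXII:253861-254958) was at 375, 373, 136 and 359 TPM in wild-type replicates 1 to 4, 406, 402, 385 and 384 TPM in *atg18∆*, 439, 448, 376 and 402 TPM in *fab1∆* and 514, 633, 501 and 479.8 TPM in *vph1∆*. The 4 *vph1∆* libraries were the highest of the 16. *ERG3* had a log2 fold change of 0.88 ± 0.24 (SE, adjusted p = 0.0414) in *vph1∆*, lost without any single mutant library, and 0.53 ± 0.24 (SE, adjusted p = 0.114) in *fab1∆*. It was 0.52 ± 0.079 (SE, adjusted p = 0.00047) in *vph1∆* without wild-type replicate 3.

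*ERG6* encodes the methyltransferase that gives ergosterol a side chain unlike that of cholesterol. *ERG6* (YML008C, chrXIII:251839-252990) was at 221, 215, 82.3 and 217 TPM in wild-type replicates 1 to 4, 256, 243, 236 and 228 TPM in *atg18∆*, 273, 272, 241 and 252 TPM in *fab1∆* and 247, 260.4, 233 and 231 TPM in *vph1∆*. All mutant libraries lay above wild type. *ERG6* passed in *fab1∆* without wild-type replicate 3, at 0.25 ± 0.054 (SE, adjusted p = 0.00157), and was at 0.60 ± 0.22 (SE, adjusted p = 0.0625) with all libraries. Leaving out any other wild-type library instead also made it pass there. Without wild-type replicate 3 and with median scaling it was not called in *fab1∆*. In *vph1∆* it passed within replicates 1 and 2 alone (adjusted p = 0.0151). *ERG5* (YMR015C) averaged 112 ± 10.8 TPM in the other 3 wild-type libraries, 118 ± 8.77 in *atg18∆*, 105 ± 4.21 in *fab1∆* and 122 ± 12.9 in *vph1∆*. *ERG4* (YGL012W) averaged 182 ± 9.81 TPM in the other 3 wild-type libraries, 198 ± 10.8 in *atg18∆*, 169.98 ± 6.14 in *fab1∆* and 199.7 ± 16.7 in *vph1∆*. *ERG5* and *ERG4* encode the desaturase and the reductase of the last steps and passed in neither fit against wild type, with a log2 fold change in *fab1∆* of 0.23 and 0.19 with all libraries and of -0.080 and -0.10 without replicate 3. With median scaling in the latter fit both were called lower.

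The activator genes *UPC2* and *ECM22* were the least abundant of the 31. *UPC2* (YDR213W, chrIV:889751-892492) was at 3.29, 3.45, 1.58 and 4.27 TPM in wild-type replicates 1 to 4, 3.49, 3.46, 4.25 and 4.01 TPM in *atg18∆*, 3.26, 3.33, 3.68 and 3.59 TPM in *fab1∆* and 3.74, 5.12, 4.63 and 4.32 TPM in *vph1∆*. *ECM22* (YLR228C, chrXII:600019-602463) was at 5.22, 5.26, 2.37 and 6.09 TPM in wild-type replicates 1 to 4, 5.31, 5.45, 5.97 and 6.16 TPM in *atg18∆*, 5.10, 4.92, 5.51 and 5.93 TPM in *fab1∆* and 5.33, 7.19, 6.67 and 6.38 TPM in *vph1∆*. Neither passed in these fits against wild type, and both were lower in *fab1∆* without wild-type replicate 3 with median scaling. The log2 fold change in *vph1∆* was 0.44 ± 0.17 (SE, adjusted p = 0.155) for *UPC2* and 0.41 ± 0.18 (SE, adjusted p = 0.190) for *ECM22*, and 0.22 ± 0.10 (SE, adjusted p = 0.162) and 0.18 ± 0.091 (SE, adjusted p = 0.244) without wild-type replicate 3. At these low levels the added 1 TPM shrinks the fold change.

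Among the genes of sterol esters, the acetyltransferase gene *ATF2* and the hydrolase gene *YEH1* changed. *ATF2* (YGR177C, chrVII:848829-850436) was at 14.6, 14.5, 5.89 and 16.3 TPM in wild-type replicates 1 to 4, 18.7, 17.7, 18.7 and 18.5 TPM in *atg18∆*, 19.4, 19.9, 18.8 and 19.7 TPM in *fab1∆* and 21.6, 24.8, 25.6 and 24.9 TPM in *vph1∆*. The strains were ordered without overlap of libraries between wild type, the other mutants and *vph1∆*. The log2 fold change was 0.95 ± 0.21 (SE, adjusted p = 0.0154) in *vph1∆*, 0.65 ± 0.21 (SE, adjusted p = 0.0319) in *fab1∆* and 0.57 ± 0.21 (SE, adjusted p = 0.294) in *atg18∆*. Leaving out wild-type replicate 3 gave 0.65 ± 0.061 (SE, adjusted p = 8.47e-06), 0.34 ± 0.061 (SE, adjusted p = 0.000328) and 0.27 ± 0.061 (SE, adjusted p = 0.193). The call in *vph1∆* was lost without *vph1∆* replicate 2 and that in *fab1∆* without any single *fab1∆* library.

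*YEH1* and *YEH2* encode related hydrolases, of lipid droplets and of the plasma membrane. *YEH1* (YLL012W, chrXII:125534-127255) was at 12.8, 13.99, 5.31 and 13.9 TPM in wild-type replicates 1 to 4, 15.6, 15.01, 15.6 and 15.9 TPM in *atg18∆*, 18.96, 19.9, 18.4 and 20.01 TPM in *fab1∆* and 16.1, 19.6, 18.7 and 16.9 TPM in *vph1∆*. *YEH2* (YLR020C, chrXII:181789-183405) was at 17.2, 19.3, 10.5 and 22.5 TPM in wild-type replicates 1 to 4, 19.7, 19.4, 22.8 and 22.4 TPM in *atg18∆*, 17.8, 17.7, 17.6 and 17.8 TPM in *fab1∆* and 20.4, 21.8, 22.3 and 19.6 TPM in *vph1∆*. For *YEH1* every *fab1∆* and *vph1∆* library was above every library of the other strains, whereas for *YEH2* the *fab1∆* libraries overlapped wild type. The log2 fold change in *fab1∆* was 0.78 ± 0.21 (SE, adjusted p = 0.0115) for *YEH1*, which held whichever library was left out, and 0.074 ± 0.17 (SE, adjusted p = 0.789) for *YEH2*. In the fit without wild-type replicate 3, *YEH1* was at 0.48 ± 0.065 (SE, adjusted p = 3e-05) in *fab1∆* and 0.36 ± 0.065 (SE, adjusted p = 0.00135) in *vph1∆*, and *YEH2* at -0.14 ± 0.081 (SE, adjusted p = 0.195) and 0.10 ± 0.081 (SE, adjusted p = 0.526).

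*ARE1* and *ARE2* encode the sterol acyltransferases. *ARE1* (YCR048W, chrIII:211929-213761) was at 17.7, 17.6, 4.64 and 16.2 TPM in wild-type replicates 1 to 4, 18.5, 18.4, 16.7 and 16.4 TPM in *atg18∆*, 20.2, 20.4, 17.6 and 19.4 TPM in *fab1∆* and 19.1, 21.6, 14.1 and 18.4 TPM in *vph1∆*. *ARE2* (YNR019W, chrXIV:665339-667267) was at 27.6, 28.99, 11.7 and 32.2 TPM in wild-type replicates 1 to 4, 36.8, 36.03, 31.97 and 32.6 TPM in *atg18∆*, 31.5, 31.4, 33.2 and 35.8 TPM in *fab1∆* and 28.3, 37.99, 37.6 and 33.4 TPM in *vph1∆*. *ARE2* was the more abundant in all 16 libraries, and *vph1∆* replicate 3 was the lowest of its strain for *ARE1*. Neither passed in these fits in any of the 6 comparisons. Their log2 fold changes in *vph1∆* were 0.50 ± 0.28 (SE, adjusted p = 0.251) and 0.52 ± 0.22 (SE, adjusted p = 0.186), and 0.075 ± 0.10 (SE, adjusted p = 0.735) and 0.20 ± 0.093 (SE, adjusted p = 0.183) without wild-type replicate 3. *ARE1* overlaps YCR050C on the opposite strand in the annotation. The library kit marks strand, and the strand setting of the quantification was not given in the sources used here. None of the 31 coding sequences shares a run of 31 bases with another gene, the pairs included.

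The mutants were also compared with each other, since those differences rest on no wild-type value and wild-type replicate 3 enters them only through the shared spread. With all 16 libraries *ERG28* was higher in *fab1∆* than in *atg18∆*, at 0.59 ± 0.095 (SE, adjusted p = 0.000482), and was the only call of 31, against 10.3% of all genes called higher and 0.593% lower. Between *vph1∆* and *atg18∆* and between *vph1∆* and *fab1∆* none was called. In each 1 of the 31 had an unadjusted p under 0.05, as had 418 and 1134 of all genes, and 0.531% of all genes were called higher in both, with 0.141% and 5.76% lower.

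Without wild-type replicate 3 the fold changes between mutants stayed as they were and their errors shrank. Between *vph1∆* and *fab1∆*, 12 of the 31 were then higher in *vph1∆* (38.7%, background 15.3%) and 2 lower (6.45%, background 25.8%). The 12 were *HMG2*, *ERG8*, *ERG7*, *ERG11*, *ERG25*, *ERG2*, *ERG3*, *ERG5*, *ERG4*, *UPC2*, *YEH2* and *ATF2*, and the 2 were *ERG20* and *ERG28*. The log2 difference was 0.42 ± 0.070 (SE, adjusted p = 0.000251) for *ERG11*, 0.43 ± 0.075 (SE, adjusted p = 0.000446) for *HMG2* and 0.35 ± 0.073 (SE, adjusted p = 0.00172) for *ERG3*. It was -0.20 ± 0.040 (SE, adjusted p = 0.00140) for *ERG20* and -0.22 ± 0.070 (SE, adjusted p = 0.0232) for *ERG28*. Of the late genes 4 of 5 were higher in *vph1∆*. With median scaling on top, the split was 15 higher and 1 lower, against 26.6% and 22.4% of all genes.

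Between *vph1∆* and *atg18∆*, 8 of the 31 were higher in *vph1∆* without wild-type replicate 3 (25.8%, background 8.88%) and none lower (background 3.18%). They were *HMG2*, *ERG12*, *ERG25*, *ERG27*, *ERG28*, *ERG2*, *ERG3* and *ATF2*. Between *fab1∆* and *atg18∆*, 5 were higher in *fab1∆* (*ERG20*, *ERG27*, *ERG28*, *ERG2* and *YEH1*) and 6 lower (*HMG1*, *ERG8*, *IDI1*, *ERG11*, *ERG4* and *YEH2*), 16.1% and 19.4% against a background of 30.8% and 17%. Median scaling in the same comparison gave 3 higher and 12 lower, against 25.3% and 30.8%. The log2 difference of *ERG11* between *fab1∆* and *atg18∆* was -0.33 ± 0.070 (SE, adjusted p = 0.00131) and that of *YEH2* -0.23 ± 0.075 (SE, adjusted p = 0.0185). These 3 comparisons share libraries pairwise, so their calls are not independent of each other.

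**Figure D5:**
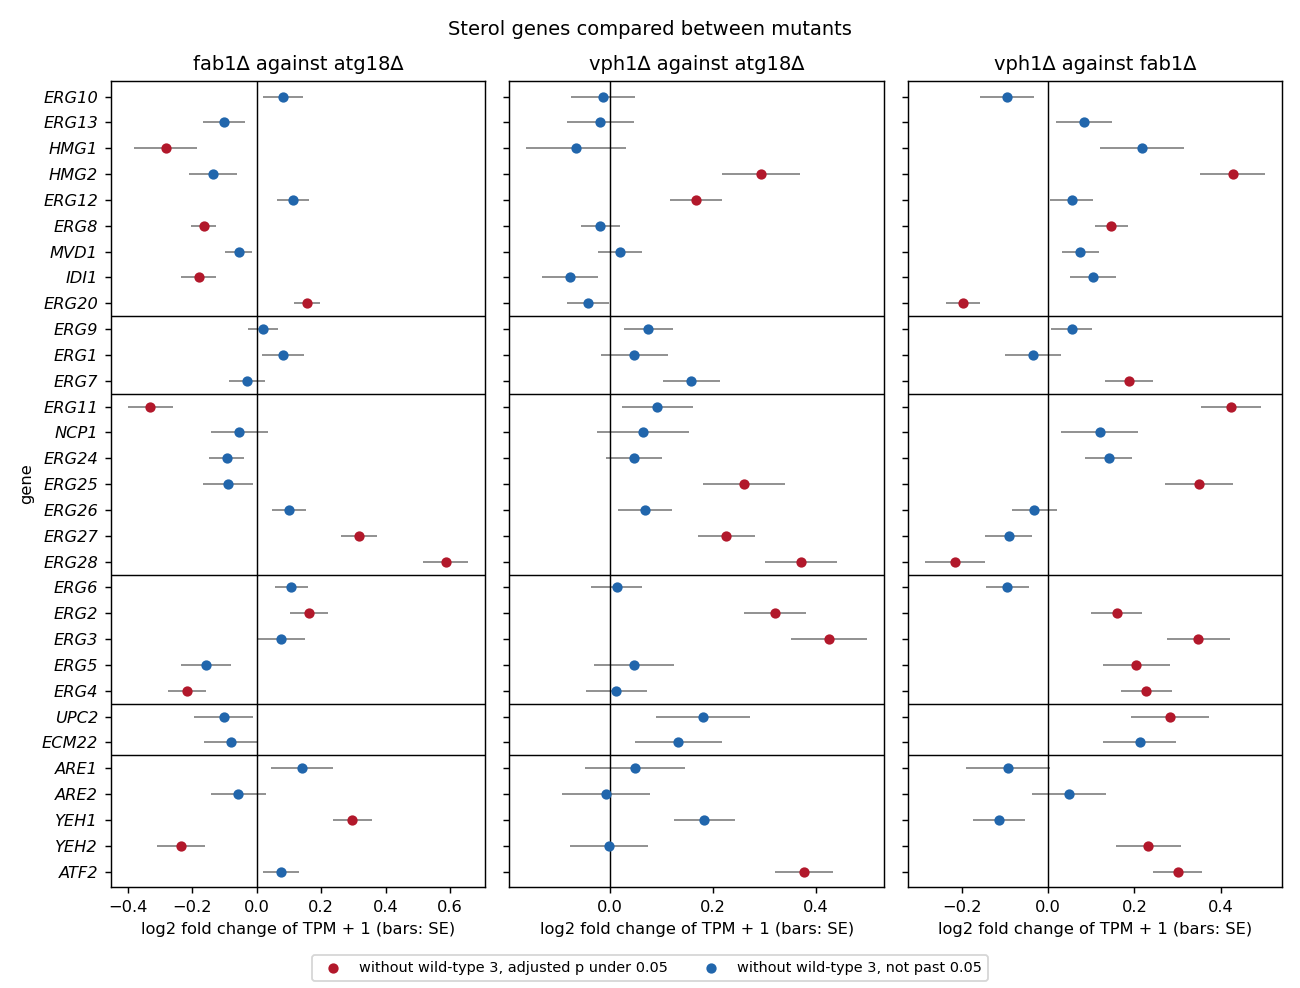
Log2 fold change of TPM + 1 (horizontal axes) of the 31 sterol genes between mutants, fitted without wild-type replicate 3, with the SE as bars, red points where the adjusted p is under 0.05 and blue points otherwise. *ERG28* lies to the right in *fab1∆* against *atg18∆*, and in *vph1∆* against *fab1∆* the red points are 12 to the right of 0 and 2 to the left.

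Replicates 1 and 2 and replicates 3 and 4 were also compared apart. Across genes, deviations from the strain mean correlated with a median r of 0.18 between libraries of the same number, 0.15 between the other libraries of the same pair and -0.20 between the pairs, which the labels do not tie to a day. Within replicates 1 and 2, where wild-type replicate 3 takes no part, the log2 fold change of *ERG28* was 0.85 in *fab1∆* and 0.60 in *vph1∆*, that of *ERG27* 0.53 and 0.47, and that of *ATF2* 0.41 and 0.64. Replicates 3 and 4 against wild-type replicate 4 alone gave 0.76 and 0.58 for *ERG28*, 0.50 and 0.39 for *ERG27*, and 0.22 and 0.60 for *ATF2*, differences of means with no test. For *ERG11* in *fab1∆* the values were -0.13 and -0.34. In *vph1∆* 31 of the 31 genes lay above wild type within replicates 1 and 2 and 27 within replicates 3 and 4. In *fab1∆* 22 and 15 did. The counts for replicates 3 and 4 rest on wild-type replicate 4 alone. The share of all genes above wild type was not taken for either pair, so these counts have no background.

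The genes with a sterol regulatory element can be set beside those without. In *vph1∆* without wild-type replicate 3, 5 of the 9 with the letters TCGTATA were called higher (*ERG25*, *ERG28*, *ERG2*, *ERG3* and *YEH1*, the sites printed above) and 6 of the 22 without them, with median log2 fold changes of 0.32 and 0.15. Over all genes with a window, 15% of those with the letters were called higher and 11.5% of those without. In *fab1∆* 5 of the 9 and 6 of the 22 were called higher, with medians of 0.20 and 0.022, against 34.8% and 32.2% of all genes. With all 16 libraries the counts were 3 of 9 and 4 of 22 in *fab1∆*, against 25.8% and 22.9% of all genes. In *vph1∆* they were 3 of 9 and 2 of 22, against 6.08% and 4.28%. *ERG27* and *ATF2*, called in both mutants, have no match in the window, nor has *ERG11*. These are descriptions over few genes.

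Genes around the pathway were followed in 6 further lists. Of all genes, 22.9% were called higher and 0.609% lower in *fab1∆* with all libraries, and 4.42% and 0.453% in *vph1∆*. Without wild-type replicate 3 these shares were 32.4% and 10% in *fab1∆*, and 11.6% and 3.12% in *vph1∆*. Of 10 regulators of sterol genes and of HMG-CoA reductase turnover, none was called in any of the 3 mutants with all libraries. Without wild-type replicate 3, *NSG2*, of the INSIG family, rose in *fab1∆* at 0.19 ± 0.046 (SE, adjusted p = 0.00428), *ROX1*, the repressor of hypoxic genes, fell at -0.23 ± 0.079 (SE, adjusted p = 0.0264), and *HAP1* rose in *vph1∆* at 0.38 ± 0.11 (SE, adjusted p = 0.0254). Of 4 genes for redox partners and *ERG29*, *DAP1*, a haem protein gene whose product acts with Erg11, was at 52.1, 50.5, 38.1 and 48.6 TPM in wild type, 54.9, 54.6, 49.1 and 54.7 in *atg18∆*, 82.3, 83.8, 82.7 and 77.6 in *fab1∆* and 65.04, 65.7, 60.5 and 62.8 in *vph1∆*. All *fab1∆* and *vph1∆* libraries were above the others. It rose in *fab1∆* at 0.78 ± 0.10 (SE, adjusted p = 4.62e-05) and in *vph1∆* at 0.43 ± 0.10 (SE, adjusted p = 0.0286), and without wild-type replicate 3 at 0.68 ± 0.049 (SE, adjusted p = 6.81e-08) and 0.33 ± 0.049 (SE, adjusted p = 0.000392). In the fit without wild-type replicate 3 *CBR1* was also higher in *fab1∆*, so 2 of the 4 were called there and 1 in *vph1∆*.

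Of 20 genes for sterol transport and other esterases, 19 passed the filter. With all libraries 22.9% of all genes were called higher in *fab1∆* and 4.42% in *vph1∆*. Of the 19, 2 rose in *fab1∆* (*LAM5* and *LAM6*, for sterol transfer proteins of membrane contact sites) and 1 in *vph1∆*. The latter was *ATF1*, an acetyltransferase gene related to *ATF2*, at 5.82, 6.26, 2.58 and 6.73 TPM in wild type, 5.78, 6.42, 7.22 and 6.80 in *atg18∆*, 5.70, 6.34, 6.03 and 6.58 in *fab1∆* and 10.9, 13.4, 11.7 and 10.9 in *vph1∆*. The *vph1∆* libraries stood alone above the others. The log2 fold change was 1.06 ± 0.19 (SE, adjusted p = 0.00388) against wild type and 0.83 ± 0.19 (SE, adjusted p = 0.0113) against *fab1∆*, and 0.80 ± 0.085 (SE, adjusted p = 2.05e-05) and 0.83 ± 0.079 (SE, adjusted p = 1.92e-06) without wild-type replicate 3. *LAM5* and *LAM6* rose in *fab1∆* at 0.70 ± 0.18 (SE, adjusted p = 0.0105) and 0.71 ± 0.20 (SE, adjusted p = 0.0144), and at 0.45 ± 0.083 (SE, adjusted p = 0.000497) and 0.43 ± 0.064 (SE, adjusted p = 7.42e-05) without wild-type replicate 3. In that fit 5 of the 19 were higher and 2 lower in *fab1∆*, among the latter *KES1* at -0.38 ± 0.10 (SE, adjusted p = 0.00873), and 2 were higher in *vph1∆*, *ATF1* and *LAM5*, beside 32.4% higher and 10% lower of all genes in *fab1∆* and 11.6% higher in *vph1∆*.

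Of 9 genes of the isoprenoid branches beside sterol synthesis, 8 passed the filter. *COQ1*, for the side chain of ubiquinone, and *RAM2*, for protein prenylation, rose in *fab1∆* at 0.62 ± 0.19 (SE, adjusted p = 0.0229) and 0.56 ± 0.19 (SE, adjusted p = 0.0356), with none called in *vph1∆*. These were 2 of the 8 with all libraries, beside 22.9% of all genes called higher in *fab1∆* and 4.42% in *vph1∆*. In the fit without wild-type replicate 3, 2 of the 8 were higher in *fab1∆* and 2 lower, beside 32.4% and 10% of all genes. *COQ1* was then at 0.35 ± 0.042 (SE, adjusted p = 1.08e-05), *RAM2* at 0.30 ± 0.062 (SE, adjusted p = 0.00124) and *CDC43* at -0.19 ± 0.052 (SE, adjusted p = 0.00998) in *fab1∆*, and *COQ1* was higher in *vph1∆* at 0.14 ± 0.042 (SE, adjusted p = 0.0359). Of 8 genes of haem synthesis, *HEM14* rose in *fab1∆* at 0.63 ± 0.16 (SE, adjusted p = 0.00845), 1 of 8 beside 22.9% of all genes, and none in *vph1∆*. When wild-type replicate 3 was omitted, 5 of the 8 were higher in *fab1∆* and 2 in *vph1∆*, against 32.4% and 11.6% of all genes. In *fab1∆* *HEM14*, *HEM12* and *HEM13* had the smallest adjusted p, with *HEM14* at 0.43 ± 0.072 (SE, adjusted p = 0.000229) and *HEM13* at 0.19 ± 0.045 (SE, adjusted p = 0.00342). Of 6 anaerobic cell wall genes, 5 passed the filter. *TIR1* was at 5.28, 4.39, 1.02 and 4.11 TPM in wild type, 6.67, 6.21, 3.10 and 3.05 in *atg18∆*, 12.7, 13.1, 10.6 and 10.4 in *fab1∆* and 6.80, 9.42, 6.92 and 8.13 in *vph1∆*, with the *fab1∆* libraries the highest. With all libraries 2 of the 5 were called higher in *fab1∆*, beside 22.9% of all genes. *TIR1* and *TIR2* rose in *fab1∆* at 1.55 ± 0.29 (SE, adjusted p = 0.00111) and 0.78 ± 0.19 (SE, adjusted p = 0.00643), and at 1.18 ± 0.21 (SE, adjusted p = 0.000305) and 0.53 ± 0.087 (SE, adjusted p = 0.0002) without wild-type replicate 3. None of the list was called in *vph1∆* with all libraries, and *TIR1* was higher there without that library, at 0.65 ± 0.21 (SE, adjusted p = 0.0464). *TIR3* went the other way. It was at 23.1, 23.4, 5.84 and 20.8 TPM in wild type, 19.5, 18.04, 15.2 and 15.1 in *atg18∆*, 15.8, 17.3, 14.7 and 17.1 in *fab1∆* and 15.1, 15.9, 14.5 and 12.98 in *vph1∆*. The *fab1∆* and *vph1∆* libraries lay below wild-type replicates 1, 2 and 4, and *TIR3* fell without replicate 3, at -0.44 ± 0.092 (SE, adjusted p = 0.00130) in *fab1∆* and -0.59 ± 0.092 (SE, adjusted p = 0.000586) in *vph1∆*, whereas with all libraries it was not called in either. In *atg18∆* no gene of these lists was called, with or without wild-type replicate 3.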

How the data were processed

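RNA from 16 libraries was analysed, 4 for each strain. The authors quantified transcripts with Salmon against an Ensembl SacCer3 transcriptome and deposited TPM values, which sum to 1000000 in each library. The submitters' processing notes give Salmon 0.8.1 and the study's methods a later version. Depth is unknown, since TPM holds no read numbers, and no scaling between libraries is stated.

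TPM values were taken as deposited. A gene was kept if its TPM averaged 1 or more (6404 genes, or 6408 without wild-type replicate 3). The model was limma 3.58.1 under R 4.3.3 on log2(TPM + 1), all strains together with 1 mean each, with a trend in the empirical Bayes variances, two-sided, and p-values were adjusted over all genes by Benjamini-Hochberg at 0.05. The study's own test, sleuth, works on read counts and could not be run on TPM. The 31 genes and the further lists were chosen with earlier results of these data known. Values in every library are given for the 12 of the 31 genes with the smallest adjusted p in any of the 6 comparisons and for the pairs *HMG1* and *HMG2*, *ARE1* and *ARE2*, *UPC2* and *ECM22*, *YEH1* and *YEH2*. From each further list, at most 3 genes past the threshold with the smallest adjusted p are named per comparison. The scripts were tested on simulated data. Alternatives changed the pseudocount (to 0.1 and to 5), the filter (none, or an average of 10 TPM), the scaling (median or quantile), the model (the compared strains alone, no variance trend, the replicate numbers as a block, a term for replicates 1 and 2 against 3 and 4) or the libraries (each of these pairs alone, each library left out). Leaving out wild-type replicate 3 together with median scaling was added after seeing the data. Sequences, lengths and positions came from the RefSeq R64 assembly.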

Additional observations from a re-analysis of the deposited data

Results flagged for a closer look

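The TPM of each of the 31 genes was checked for a library that lies far from the other 3 of its strain, as a gap to the nearest other value, divided by the range, above Dixon's 95% limit for 4 values. Of 124 groups of 4 libraries 17 exceeded the limit. Chance alone gives about 1 in 20 for a single group, but the groups come from the same libraries and are not independent. In 16 of the 17 the library was wild-type replicate 3, on the low side. There it stood, in TPM, with *ERG10* at 141, *ERG12* at 19.9, *ERG8* at 29.7, *MVD1* at 62.4, *ERG20* at 128, *ERG9* at 56.2, *ERG1* at 61.2, *ERG7* at 16.8, *NCP1* at 22.2, *ERG25* at 215, *ERG27* at 36.1, *ERG6* at 82.3, *ERG3* at 136, *ERG4* at 80.5, *ARE1* at 4.64 and *YEH1* at 5.31.

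The remaining case was *ATF2* in *atg18∆* replicate 2, at 17.7 TPM against 18.5 to 18.7 TPM in the other 3 libraries. The gap is small in absolute terms and the library stayed above all wild-type libraries of that gene.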

How the results depend on the processing

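The counts of sterol genes past the threshold, in either direction, were recomputed under each alternative. Shares of all genes are given above for some settings only, and these counts alone do not set sterol genes apart. Against wild type, *atg18∆* went from 0 to 1 within replicates 1 and 2 alone. The count of 7 in *fab1∆* became 1 in the pairwise fit, 12 within replicates 1 and 2 alone, 0 within replicates 3 and 4 alone, and 15 without wild-type replicate 3 with median scaling. The count of 5 in *vph1∆* became 2 without a filter, 3 of 29 tested at a mean TPM of at least 10, 9 with median scaling, 11 with quantile normalization, 0 in the pairwise fit, 10 within replicates 1 and 2 alone, 0 within replicates 3 and 4 alone, and 9 without wild-type replicate 3 with median scaling.

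Between *fab1∆* and *atg18∆* the count of 1 became 9 with median scaling, 9 with quantile normalization, 14 in the pairwise fit, 5 within replicates 1 and 2 alone, 0 within replicates 3 and 4 alone, and 15 without wild-type replicate 3 with median scaling. Between *vph1∆* and *atg18∆* the count of 0 became 1 without a filter, with median scaling, with quantile normalization and with a term for the pairs of replicates, 4 in the pairwise fit, 5 within replicates 1 and 2 alone, and 7 without wild-type replicate 3 with median scaling. Between *vph1∆* and *fab1∆* the count of 0 became 11 with median scaling, 10 with quantile normalization, 13 in the pairwise fit, 8 within replicates 1 and 2 alone, and 16 without wild-type replicate 3 with median scaling.

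Leaving out each library in turn gave 0 to 0 in *atg18∆*, 3 to 12 in *fab1∆* and 1 to 11 in *vph1∆* against wild type. It gave 1 to 11 between *fab1∆* and *atg18∆*, 0 to 8 between *vph1∆* and *atg18∆* and 0 to 14 between *vph1∆* and *fab1∆*, each highest without wild-type replicate 3 and otherwise equal to the main count. *ERG11* in *fab1∆*, with a log2 fold change of 0.13 with all libraries, moved between -0.21 and 0.27 as single libraries were left out. It reversed to -0.20 with median scaling, -0.10 with quantile normalization, -0.13 within replicates 1 and 2 alone, -0.21 without wild-type replicate 3 and -0.32 without it with median scaling. The cause of these differences was not tested.

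With the replicate number as a block, the counts were 0 in *atg18∆*, 9 in *fab1∆* and 5 in *vph1∆* against wild type, then 1, 0 and 0 between mutants, so the block moved none by over 1.5 times. Deviations of same-numbered libraries correlated at -0.12 to 0.44, over 0.1 in 16 of 24 pairs. For 8 of 16 libraries the mean correlation with libraries of the other strains was highest for their own number. The numbers were not taken to pair the libraries, although these values do not settle whether they do. Depth is unknown, and *UPC2* and *ECM22*, at 1.58 to 7.19 TPM, are the genes whose values it could limit most.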
